A study of Homo sapiens with 3 samples.

Results

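The genes described here encode the subunits of the mitochondrial respiratory chain (complexes I to IV) and of the ATP synthase (complex V), together with assembly factors and gene copies that carry the same symbols. They were taken as every gene of the deposited table whose symbol begins with NDUF, UQCR or ATP5, is SDHA, SDHB, SDHC or SDHD, or begins with COX followed by a number from 4 to 8. This gave 97 of 19266 genes. They fall into 7 core and 30 accessory subunits of complex I, 8 complex I assembly factors, 4 subunits of complex II, 8 of complex III, 17 subunits and isoforms of complex IV (NDUFA4 among them, which is now placed in that complex), 15 subunits of complex V, and 8 others, namely gene copies, readthrough transcripts and related genes. Of the 97, 95 have values in the table, COX6A2 and COX7B2 have none, and 89 reached 1 FPKM in at least 1 sample and were tested.

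The RNA came from KYSE140, an established line of human esophageal squamous carcinoma cells grown in RPMI medium with serum. The 3 samples were 1 negative control, 1 sample in which DLX5 was knocked down by siRNA1, and 1 in which it was knocked down by siRNA2. DLX5 encodes a homeobox transcription factor. The labels give no time after transfection and do not say what the control cells received, and the series' design text names retina and 3 replicates, neither of which matches the labels of the samples. All 3 samples are of a single cell line, and 2 replicate columns per sample, with no label of their own, were counted as 1 value, so an SD below is the spread over those 2 columns. In a bulk sample, fewer cells of a type and less RNA per cell cannot be told apart.

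The respiratory chain passes electrons from NADH (complex I) and succinate (complex II) through coenzyme Q, complex III and cytochrome c to oxygen at complex IV, and complexes I, III and IV pump protons across the inner mitochondrial membrane. The ATP synthase lets the protons flow back through a membrane rotor and makes ATP in its matrix head. Most subunits are encoded in the nucleus and imported, and these are the genes measured here. The mitochondrially encoded subunits were not analysed here.

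DLX5 stood at 13.0 FPKM (fragments per kilobase of transcript, scaled to the reads of the sample) in the control, 3.63 with siRNA1 and 3.25 with siRNA2 (log2 fold change -1.66 ± 0.18 (SE), limma adjusted p = 0.0210). Summed over all genes, FPKM came to 427619 in the control, 432072 with siRNA1 and 425752 with siRNA2. From the spacing of low values, each replicate column rested on an estimated 17100000 to 17900000 reads, so that SDHB had about 999 to 1888 reads per column and COX6B2 about 47 to 110. Defining squamous markers were high in all samples, and 6 of them summed to 7486 FPKM in the control, 2743 with siRNA1 and 2569 with siRNA2. Of these, KRT5, KRT14, KRT17 and SFN fell, while TP63 (92.1, 90.6 and 79.4 FPKM) and DSG3 (41.6, 46.9 and 32.3 FPKM) did not pass the test. Of 6 fibroblast markers COL1A1 was measured at 15.9, 8.76 and 7.51 FPKM while the other 5 stayed at or below 0.10 FPKM. The summed level of 6 leukocyte markers was 10.5, 6.75 and 6.87 FPKM, with CD3E without a value, and those of 4 endothelial, 6 muscle and 6 retinal markers lay between 0.320 and 2.66 FPKM. The part of these shifts in the results below was not tested.

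Respiratory chain and ATP synthase transcripts were, as a group, slightly higher in both DLX5 siRNA samples than in the control. Among the members that rose were NDUFB6 and NDUFA8 of complex I and SDHB of complex II, between 1.66-fold and 1.85-fold. No member fell. In all, 4 of 89 tested members rose (4.49%), beside 1.42% of all 12078 genes tested that rose and 1.67% that fell (limma with a trend, Benjamini-Hochberg adjusted p under 0.05). At an unadjusted p under 0.05, 10 members were higher and 1, NDUFA1, was lower. The calls rest on 1 residual degree of freedom and on a single control, whose own variation is unknown, and the number of members that rose was 1 with a pseudocount of 0.1 or after rescaling to TPM, 2 after centring on sample medians, and 0 after quantile normalization or without the filter on low FPKM. With the replicate columns as separate values, which measure the spread within samples, 30 members rose, against 19.1% of all genes, and 1 fell, against 16.1%.

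Most of the shift was small and shared. Of the 89 tested members, 62 (69.7%) were higher with both siRNAs, against 41.3% of all genes tested, and 9 (10.1%) were lower with both, against 36.0%. The median difference of the members was 0.16 on the log2(FPKM + 1) scale with siRNA1 and 0.12 with siRNA2, against 0.03 and 0.01 over all genes tested. In 50 members (56.2%) all 4 siRNA columns lay above both control columns, against 31.0% of genes, and in 4 (4.49%) they all lay below, against 26.8%. Both siRNAs are set against the same control, so a control that stands apart would move both. Changes of at least 1.5-fold with both siRNAs on the same scale were seen in 5 of 87 members with a mean of at least 1 FPKM in the upward direction, against 3.31% of genes, and in 1 in the downward direction, against 4.41%.

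**Figure D1:**
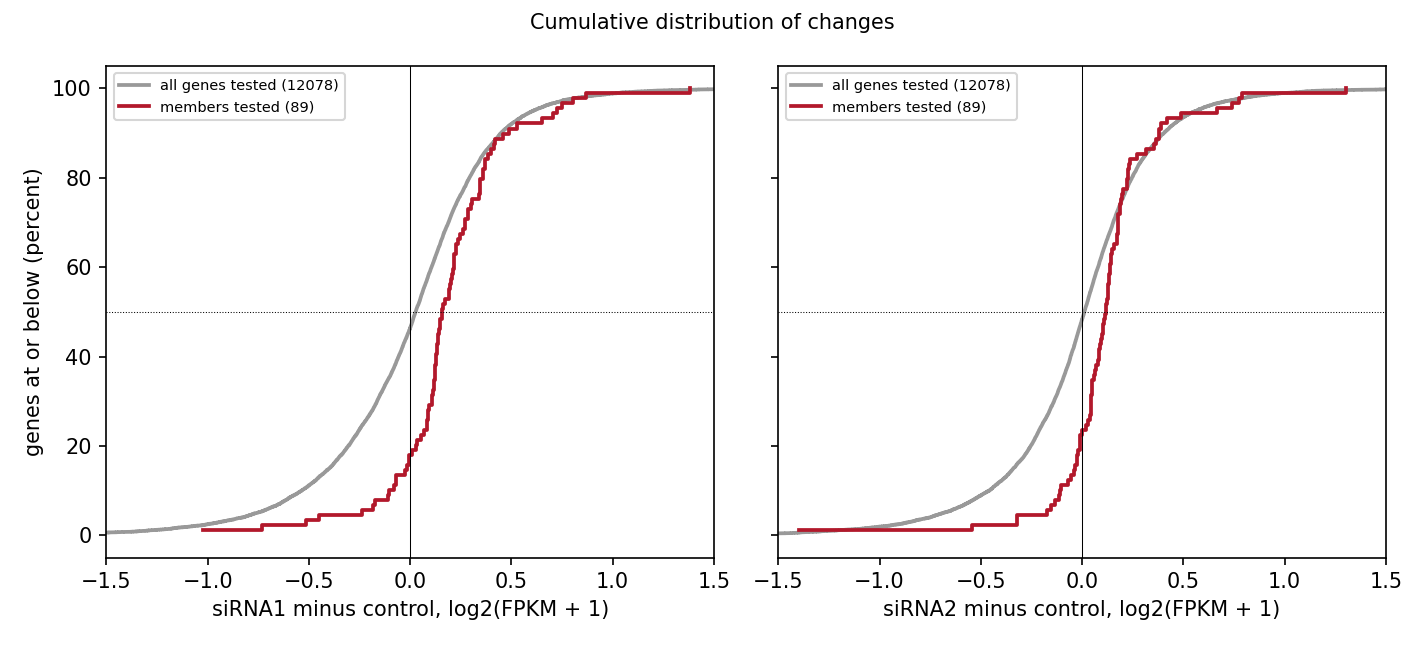
Cumulative share of genes (percent, y axis) at or below a given difference from the control on the log2(FPKM + 1) scale (x axis), for siRNA1 (left) and siRNA2 (right), in grey for the 12078 genes tested and in red for the 89 members. The red curves cross 50% at 0.16 and 0.12, to the right of the grey ones at 0.03 and 0.01.

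The members are mostly short transcripts, with a median longest transcript of 1059 bases against 3181 over all genes tested, and they are abundant, with a median of 73.8 FPKM in the control against 11.4. All tested genes with a longest transcript under 1500 bases had median differences of 0.07 with siRNA1 and 0.03 with siRNA2, and the longer ones 0.02 and 0.01. Members under that length had 0.16 and 0.10 (56 genes) and longer members 0.15 and 0.13 (33 genes). Within each side the members were still the shorter ones, with medians of 719 against 1109 bases and 2117 against 3530 bases. Levels were not matched, and the part of length or level in the shift was not tested.

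Together the 97 genes made up 2.22% of the summed FPKM in the control (2.199% and 2.238% in its columns), 2.50% with siRNA1 (2.47% and 2.54%) and 2.42% with siRNA2 (2.42% and 2.43%). The columns of the siRNA samples did not overlap with those of the control. By class, the core of complex I went from 435 summed FPKM to 560 and 532, complex II from 238 to 293 and 299, and complex V from 2591 to 3052 and 2936. Complex III went from 832 to 921 and 872, complex IV from 2382 to 2642 and 2569, and the accessory subunits of complex I from 2725 to 3057 and 2807. The assembly factors of complex I read 169, 166 and 179. The core of complex I and complex II thus had the largest relative differences of these sums. Only the assembly factors were not above the control with both siRNAs. A sum can rest on single genes, and within complex II SDHB alone went from 53.2 to 88.6 and 91.9 FPKM. Median log2(FPKM + 1) differences lay closer together: 0.27 and 0.20 in the core, 0.24 and 0.19 in complex II, and 0.21 and 0.16 in complex V.

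**Figure D2:**
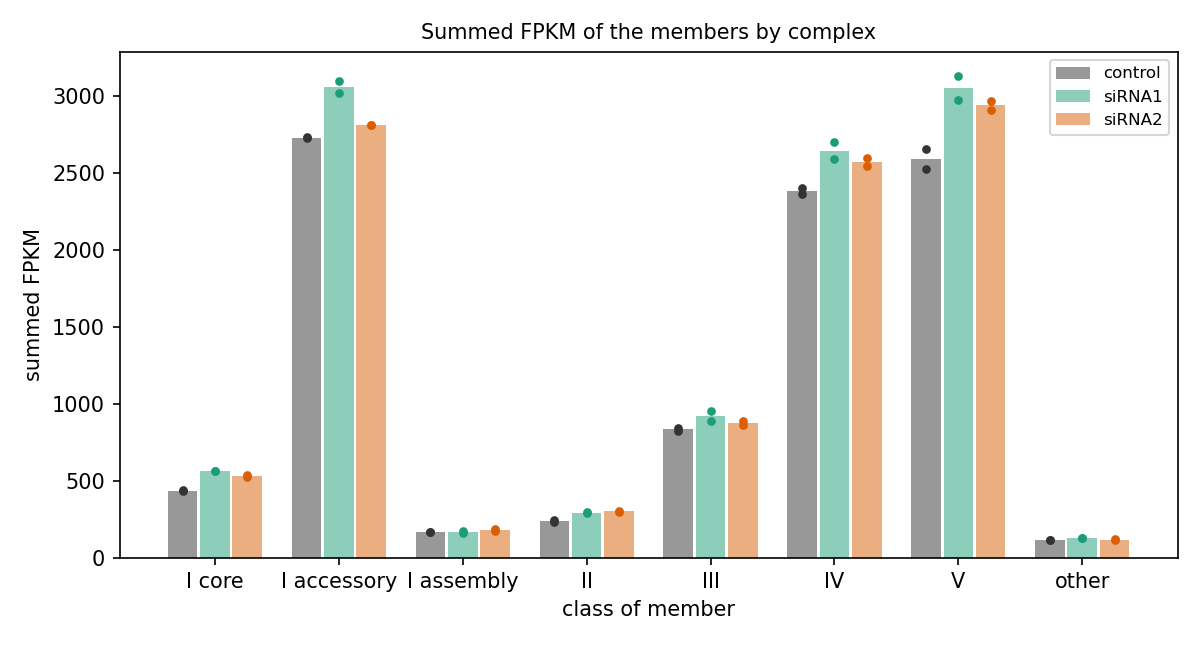
Summed FPKM (y axis) of the members of each class (x axis) in the control, siRNA1 and siRNA2 samples as bars, with the 2 replicate columns of each sample as points. Complex V read 2591 in the control against 3052 and 2936, while the assembly factors of complex I stayed between 166 and 179.

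In complex I, all 7 core subunits, which carry the flavin and iron-sulfur centers that take electrons from NADH to coenzyme Q, were higher with both siRNAs, and in all 7 the 4 siRNA columns lay above both control columns. NDUFS3, a core subunit of the peripheral arm, read 52.1, 73.5 and 70.1 FPKM in the control, siRNA1 and siRNA2 and did not pass the test (limma adjusted p = 0.152). NDUFV1, which binds NADH and the flavin, read 99.8, 110 and 108 FPKM. NDUFV2, the most abundant core transcript, read 106, 135 and 120 FPKM, and NDUFS1, the largest iron-sulfur subunit, read 28.6, 34.7 and 33.1 FPKM. NDUFS7 and NDUFS8, which carry the last iron-sulfur centers before coenzyme Q, read 52.3, 62.4 and 57.1 FPKM and 73.8, 85.1 and 86.7 FPKM. None of these genes passed the test, and each was between 1.09-fold and 1.41-fold higher with either siRNA.

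Among the 30 accessory subunits, which surround the core and stabilize it, 2 rose and none fell, 21 were higher with both siRNAs and 4 were lower with both. NDUFB6, a subunit of the membrane arm (Entrez gene 4712, chromosome 9, 32553524 to 32573182, minus strand of hg19, the build of all positions of genes), rose from 33.9 ± 0.0566 FPKM to 62.6 ± 4.69 with siRNA1 and 59.2 ± 4.002 with siRNA2, that is 1.85-fold and 1.75-fold (limma adjusted p = 0.0432). Its call was lost with a pseudocount of 0.1 (limma adjusted p = 0.0507), after rescaling to TPM (0.0592), after quantile normalization (0.0770) and without the filter (0.320). NDUFA8, a cysteine-rich subunit on the intermembrane side (Entrez gene 4702, chromosome 9, 124894745 to 124922098, minus strand), rose from 41.8 ± 2.82 FPKM to 73.9 ± 3.91 and 70.5 ± 0.608, that is 1.77-fold and 1.68-fold (limma adjusted p = 0.0485). The NDUFA8 call was lost at the same settings and after centring (limma adjusted p from 0.0525 to 0.320). For both genes every siRNA column lay above every control column. NDUFS6 read 204 FPKM in the control against 280 and 266 (adjusted p = 0.142), NDUFS4 read 49.2 against 71.4 and 59.6 (adjusted p = 0.261), and NDUFA5, the accessory subunit with the lowest level, read 12.3 against 16.8 and 16.4 (adjusted p = 0.245), all by limma. NDUFS5, the most abundant, read 258, 273 and 248 FPKM, so its siRNA samples lay on either side of the control.

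NDUFA1 was the member with the largest difference downward. This small membrane-arm subunit, encoded on the X chromosome and needed to assemble the complex (Entrez gene 4694, chromosome X, 119005734 to 119010629, plus strand), stood at 139 ± 0.636 FPKM in the control, 83.6 ± 3.30 with siRNA1 and 52.3 ± 2.18 with siRNA2. Its columns did not overlap between any of the 3 samples. Against the control this was 1.67-fold lower for siRNA1 and 2.67-fold lower for siRNA2. Over both, the log2 fold change was -1.06 ± 0.27, which did not pass the test (limma adjusted p = 0.101). In the order of the 37 complex I subunits it ranked 7 from the top in the control, 17 with siRNA1 and 27 with siRNA2. Its range overlaps that of RNF113A on the other strand by 58 bases, a gene at 13.3, 12.8 and 13.4 FPKM. NDUFB8, another membrane-arm subunit, read 131, 116 and 89.9 FPKM and likewise was lower with siRNA2 than with siRNA1 (limma adjusted p = 0.358). NDUFA3 and NDUFA11, the other accessory subunits lower with both siRNAs, read 80.4, 78.9 and 79.6 FPKM and 101, 95.1 and 98.1 FPKM.

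The 8 assembly factors, which build complex I and do not remain in it, gave no common direction: 4 were higher with both siRNAs, 1 was lower and 3 were mixed. NDUFAF5, the lowest of them, read 2.72, 3.97 and 3.80 FPKM (limma adjusted p = 0.292). NDUFAF3 read 25.2, 18.2 and 22.3 FPKM (limma adjusted p = 0.422), and its range overlaps that of DALRD3 on the other strand by 597 bases. NDUFAF8 had the highest level, at 72.8, 78.6 and 80.3 FPKM.

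**Figure D3:**
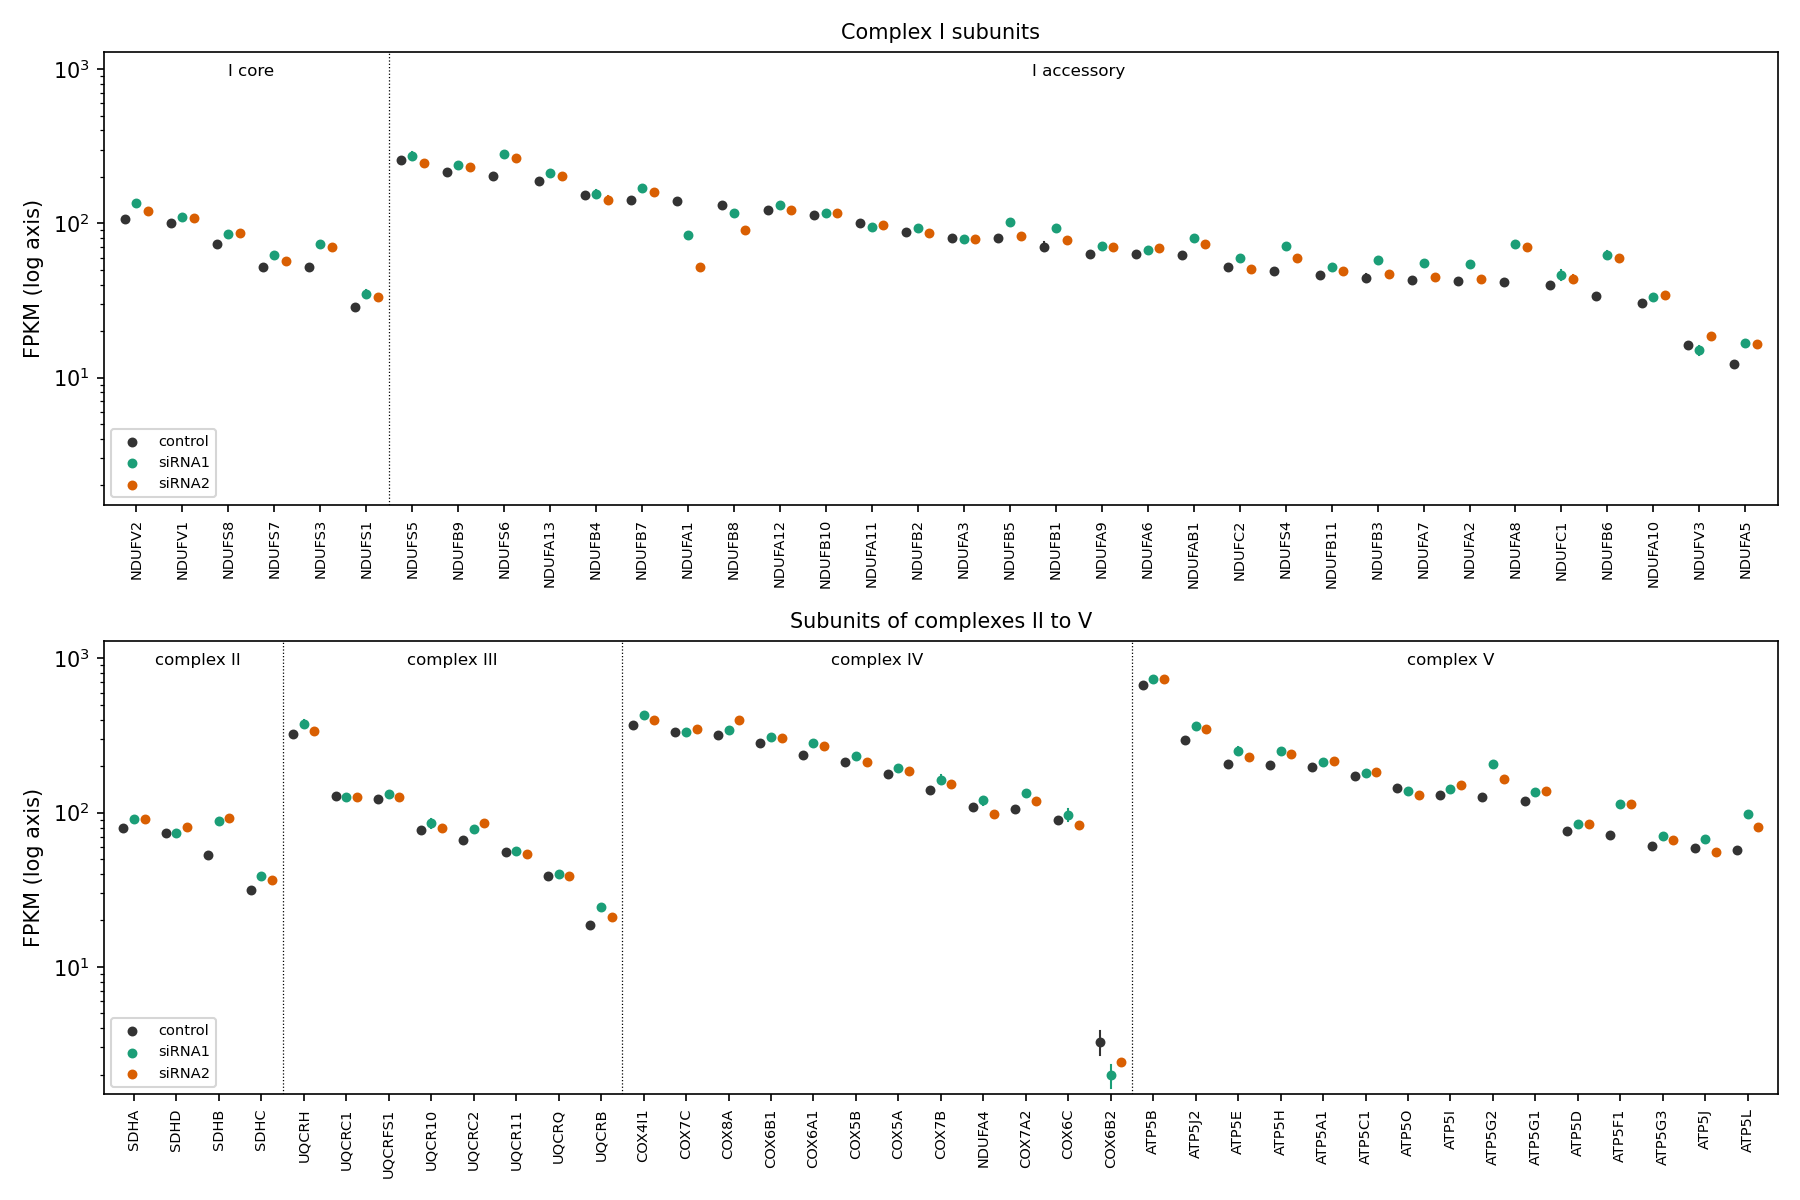
FPKM on a log axis (y axis) of tested subunits (x axis), ordered within its class by the control level, for complex I (top) and complexes II to V (bottom). Points are sample means (control dark grey, siRNA1 green, siRNA2 orange) and vertical lines join the 2 replicate columns. SDHB moves from 53.2 to 88.6 and 91.9, NDUFA1 from 139 to 83.6 and 52.3.

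Complex II oxidizes succinate and is the only complex of the chain that is also an enzyme of the tricarboxylic acid cycle. SDHB, its iron-sulfur subunit (Entrez gene 6390, chromosome 1, 17345217 to 17380665, minus strand), rose from 53.2 ± 3.67 FPKM to 88.6 ± 4.79 with siRNA1 and 91.9 ± 3.84 with siRNA2 (1.66-fold and 1.73-fold, log2 fold change 0.75 ± 0.14, limma adjusted p = 0.0485). The SDHB call was lost with a pseudocount of 0.1, after TPM rescaling, centring or quantile normalization, and without the filter (limma adjusted p from 0.0526 to 0.320), with a log2 fold change between 0.70 and 0.76. SDHA, the flavoprotein that pairs with SDHB in the matrix, read 79.4, 91.3 and 90.6 FPKM. The ratio of SDHB to SDHA was thus 0.671 in the control and 0.971 and 1.01 with the siRNAs. The membrane anchors SDHC and SDHD read 31.7, 38.8 and 36.4 FPKM and 74.1, 73.9 and 80.4 FPKM. In the control the order was SDHA, SDHD, SDHB, SDHC, and the columns of no 2 of these genes overlapped.

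**Figure D4:**
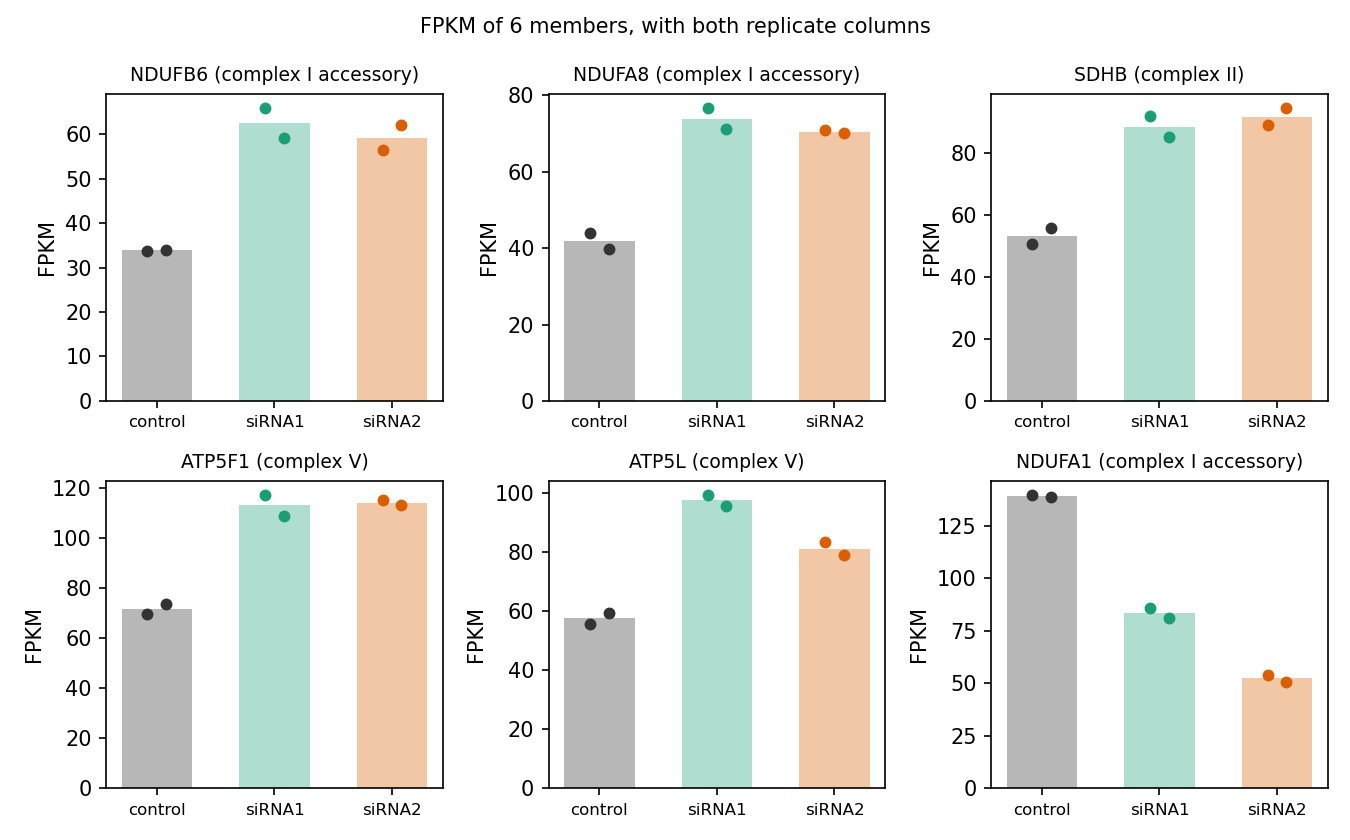
FPKM (y axis, from 0) of 6 members in the control, siRNA1 and siRNA2 samples: NDUFB6, NDUFA8 and SDHB, which rose, and ATP5F1, ATP5L and NDUFA1, which did not pass the test. Bars are sample means and points the 2 replicate columns; SDHB goes from 53.2 to 88.6 and 91.9, and NDUFA1 from 139 to 83.6 and 52.3.

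Complex III hands electrons from coenzyme Q to cytochrome c. None of its 8 subunits passed the test, 5 were higher with both siRNAs, 1 was lower and 2 were mixed, and the median differences were 0.12 and 0.04. UQCRC2, a core protein, read 66.5 ± 1.24 FPKM in the control, 78.4 ± 0.127 with siRNA1 and 85.4 ± 1.15 with siRNA2 (limma adjusted p = 0.331). Its partner UQCRC1 read 127, 127 and 126 FPKM, and the Rieske iron-sulfur protein UQCRFS1 read 123, 131 and 127 FPKM. UQCRH, the hinge protein near cytochrome c, had the highest level at 325, 378 and 341 FPKM, and UQCRB the lowest at 18.6, 24.3 and 21.2 FPKM. The gene copy UQCRHL was at 0.895, 1.07 and 0.515 FPKM, and reads of UQCRH and UQCRHL may have been split between them.

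Complex IV reduces oxygen, and several of its nuclear subunits exist as a widely expressed form and a form of muscle, lung or testis. None of its 12 tested members passed the test, 8 were higher with both siRNAs, 1 was lower and 3 were mixed. KYSE140 cells held the widely expressed forms. COX4I1 read 370, 430 and 396 FPKM, and COX4I2 was at 0.0450 FPKM in the control and listed at 0 with both siRNAs. COX6A1 read 235, 284 and 269 FPKM, the largest difference upward in complex IV by the smaller of its changes (limma adjusted p = 0.377). COX7A2 read 106, 134 and 119 FPKM and the muscle form COX7A1 0.375, 0.260 and 0.370 FPKM. COX8A read 321, 342 and 400 FPKM, and COX8C was at 0.0550, 0.0550 and 0 FPKM. COX7B read 139, 164 and 152 FPKM.

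The testis form COX6B2 was the exception among these forms in having a level above 1 FPKM. It read 3.26 ± 0.785 FPKM in the control, 1.98 ± 0.474 with siRNA1 and 2.41 ± 0.00707 with siRNA2, with every siRNA column below both control columns (limma adjusted p = 0.289), while its partner COX6B1 read 284, 311 and 305 FPKM. NDUFA4 read 108, 120 and 98.6 FPKM, so the siRNA samples lay on either side of the control. Its copy NDUFA4L2, known as a gene induced by hypoxia, was at 0.385 ± 0.163, 0.920 ± 0.283 and 0.825 ± 0.148 FPKM, on an estimated 6 to 23 reads per column, and did not reach the level for testing. COX7A2L, a relative of COX7A2 that joins complexes III and IV, read 68.7, 80.6 and 70.3 FPKM.

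In the ATP synthase none of the 15 subunits passed the test, 13 were higher with both siRNAs, 1 was lower and 1 was mixed, with median differences of 0.21 and 0.16. ATP5F1, subunit b of the stalk that holds the head still (Entrez gene 515, chromosome 1, 111991743 to 112004540, plus strand), read 71.8 ± 2.70 FPKM in the control, 113 ± 5.83 with siRNA1 and 114 ± 1.58 with siRNA2. It was 1.58-fold and 1.59-fold higher, and missed the threshold (limma adjusted p = 0.0623). Its range overlaps that of WDR77 on the other strand by 188 bases, a gene at 38.3, 26.9 and 36.4 FPKM. Relative to ATP5H, subunit d of the same stalk, ATP5F1 stood at 0.352 in the control and 0.450 and 0.475 with the siRNAs. ATP5O, which joins the stalk to the head, was lower with both siRNAs at 145, 138 and 130 FPKM.

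The catalytic head was measured by ATP5B, the most abundant member of all, at 672, 732 and 735 FPKM, and by ATP5A1 at 197, 214 and 215 FPKM. ATP5L, subunit g at the membrane and the ATP synthase subunit with the lowest control level, read 57.5, 97.4 and 81.1 FPKM (limma adjusted p = 0.112). The proton-carrying ring is made of subunit c, and the genes ATP5G1, ATP5G2 and ATP5G3 encode the same mature protein with different import signals. ATP5G2 read 127 ± 3.88 FPKM in the control, 207 ± 12.7 with siRNA1 and 165 ± 9.19 with siRNA2 (limma adjusted p = 0.155). ATP5G1 read 118, 137 and 138 FPKM and ATP5G3 60.4, 70.1 and 66.4 FPKM. Summed, subunit c came to 306, 414 and 370 FPKM, and the share from ATP5G2 was 41.5% in the control, 50.03% with siRNA1 and 44.7% with siRNA2. ATP5J, whose gene overlaps that of the transcription factor GABPA head to head by 708 bases, read 58.6, 67.0 and 55.7 FPKM, and GABPA read 8.69, 11.8 and 7.93 FPKM.

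Among the remaining members no test was passed. ATP5S read 9.71, 9.20 and 8.92 FPKM and ATP5SL 33.4, 36.5 and 32.8 FPKM, and ATP5L2 was at 0.470, 0.425 and 0.610 FPKM. The readthrough transcripts NDUFC2-KCTD14 (0.585, 0.595 and 0.410 FPKM) and ATP5J2-PTCD1 (1.03, 0 and 1.25 FPKM) share sequence with NDUFC2 and ATP5J2, so the split of reads is uncertain. The control columns of ATP5J2-PTCD1 read 0 and 2.07 FPKM.

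The siRNA samples also differed from each other. In 64 of 89 tested members (71.9%) the level was higher with siRNA1 than with siRNA2, against 53.3% of all genes tested. In complex I accessory subunits this was 25 of 30 and in complex III 7 of 8, while in complex V it was 8 of 15 and in complex I assembly factors 3 of 8. There is 1 sample per siRNA, so this difference has no replicate check. The authors' deposited table, whose DEGseq q-values compare pairs of samples, gives 37 of 93 members (39.8%) as higher with both siRNAs at a q-value under 0.001, against 16.7% of all genes with q-values, 2 (2.15%) as lower with both (NDUFA1 and NDUFB8), against 14.7%, and 1 in opposite directions, NDUFA4.

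**Figure D5:**
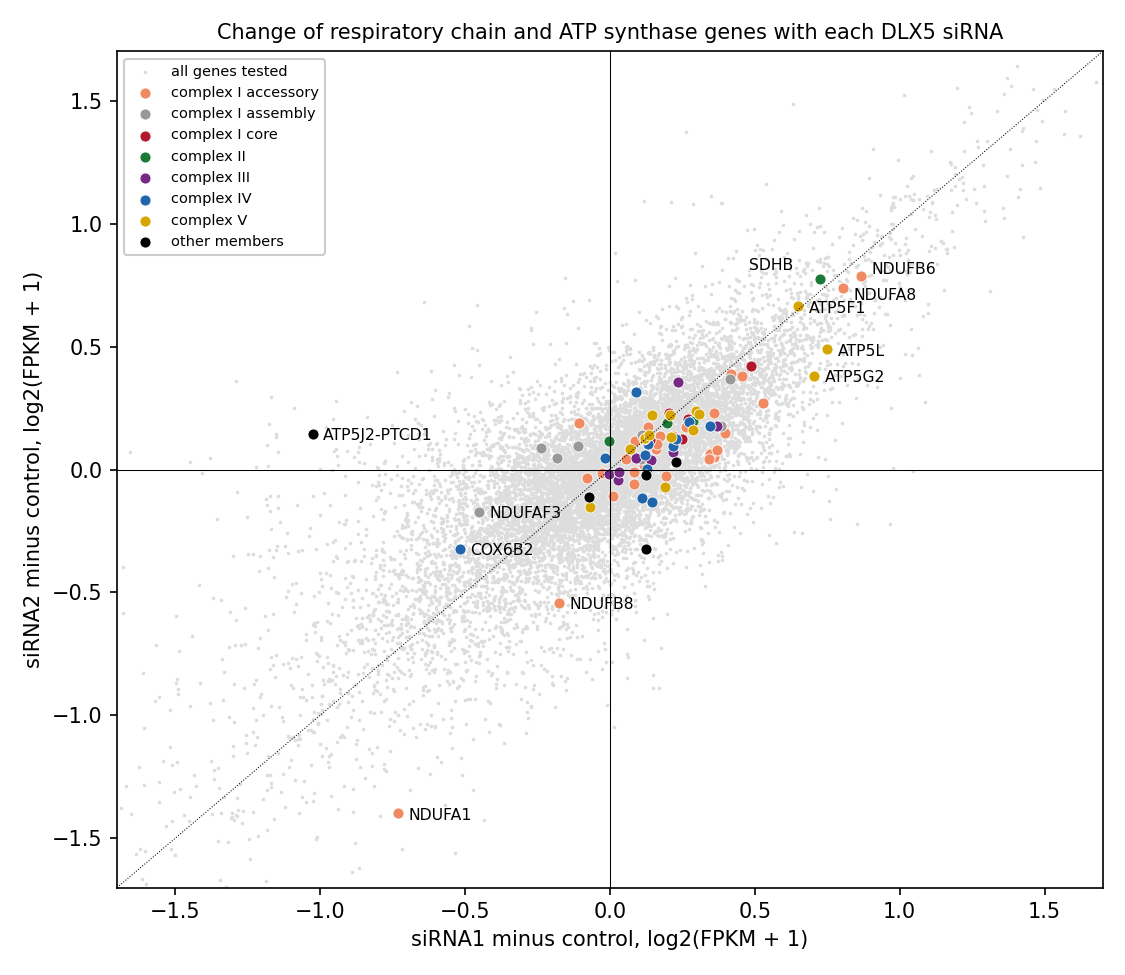
Difference from the control on the log2(FPKM + 1) scale with siRNA1 (x axis) and siRNA2 (y axis), for all genes tested (light grey) and for tested members, colored by class, with equal differences along the dotted line. Both axes share the control sample. Most members lie in the upper right, close to 0, SDHB stands at 0.72 and 0.78 and NDUFA1 at -0.73 and -1.40.

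Genes that serve the chain without matching the symbols above were then counted by list. Of 37 assembly factors of complexes II to V, 1 rose (2.70%) and 1 fell, beside 1.42% and 1.67% of all genes tested. Their median differences were 0.06 and 0.06. COX10, which attaches a farnesyl group to heme on the way to the heme A of complex IV, fell from 12.6 FPKM to 4.64 and 4.63 (2.73-fold lower with each siRNA, limma adjusted p = 0.0260). CMC2, an assembly factor of complex IV, rose from 59.3 FPKM to 102 and 99.2 (limma adjusted p = 0.0466). Neither call held after quantile normalization or without the filter, and that of CMC2 was also lost with a pseudocount of 0.1, after TPM rescaling and after centring (limma adjusted p from 0.0508 to 0.320 for CMC2, and 0.0573 and 0.320 for COX10). Of 15 genes of electron carriers and coenzyme Q synthesis none passed the test, with median differences of 0.19 and 0.21, and cytochrome c (CYCS), the carrier between complexes III and IV, named after its values were seen, read 65.6, 103 and 109 FPKM (limma adjusted p = 0.0605). Of 21 genes of the tricarboxylic acid cycle 11 were higher with both siRNAs and 4 lower, with list medians of 0.04 and 0.10. This list also holds pyruvate dehydrogenase genes and the cytosolic enzymes ACO1, IDH1 and MDH1.

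Of 17 tested regulators of mitochondrial biogenesis none passed, 5 were higher with both siRNAs and 6 lower, and the medians were -0.02 and 0.00. ESRRA had the largest log2 fold change of them, at 25.45, 31.0 and 35.9 FPKM (limma adjusted p = 0.289). The nuclear respiratory factor NRF1 was between 7.09 and 8.0 FPKM in all samples, the mitochondrial transcription factor TFAM 24.6, 23.4 and 21.99 FPKM, and YY1 51.4, 52.0 and 51.2 FPKM, while the coactivator PPARGC1A was at or below 0.0650 FPKM in all samples. Of 18 genes of inner membrane import and transport none passed, with medians of -0.01 and 0.08. That list also holds the outer membrane channels VDAC1, VDAC2 and VDAC3.

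NRF1, GABPA (an ETS factor) and YY1 are textbook regulators of respiratory chain genes, so promoters were searched for their words on both strands: GCGC, any 2 bases and GCGC for NRF1, CCGGAAG for ETS factors and AAGATGG for YY1. RefSeq windows (GRCh38.p14) of 300 bases, from 250 bases before to 50 after each start, matched 78 of the 97 members. The YY1 word was in 19 of 78 (24.4%), against 9.48% of tested genes and 7.11% of all genes with a window. The NRF1 word was in 18 (23.1%), against 18.9% and 9.98%, and the ETS word in 22 (28.2%), against 23.0% and 12.2%. At least 1 of the 3 words was in 46 members (59.0%) against 42.8% of tested genes. The YY1 word holds the letters ATGG and, past the transcription start, can coincide with a start codon, which was not tested. The following stretches of 30 bases from promoters of members described above show the words in capitals, or their reverse complement where the word is on the other strand.
SDHB, YY1 word, 11 bases after the start, chr1:17054004-17054033, minus strand: cgtcaggagccAAGATGGcggcggtggtcg
SDHB, ETS word, at -128, chr1:17054142-17054171, minus strand: cacccgggaaaCCGGAAGccgcctcccact
ATP5F1, YY1 word in reverse, at -1, chr1:111449452-111449481, plus strand: cttgtgagcggCCATCTTggtcctgccctg
NDUFA8, NRF1 word, at -4, chr9:122159764-122159793, minus strand: gttgccggatGCGCATGCGCaggcgccgtg
NDUFS3, ETS word, at -83, chr11:47578980-47579009, plus strand: tccacgtccgcCCGGAAGaagatctgctgc
NDUFA1, ETS word in reverse, at -47, chrX:119871774-119871803, plus strand: ttccgtcgcttCTTCCGGagccgtacgtgg
The ETS word stands before both SDHB, which rose, and NDUFA1, which was lower. Whether any of the 3 words separates members by their change was not tested. Tested members with the YY1 word had a median log2 fold change of 0.15 (19 genes) and those without it 0.13 (54 genes). For the ETS word the medians were 0.14 and 0.13, and for the NRF1 word 0.07 and 0.17. A match is a run of letters and does not show that a factor binds there.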

How the data were processed

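RNA sequencing of 3 KYSE140 samples was analysed from 1 table of genes. The authors deposited FPKM values, in 2 replicate columns and as a mean per sample, per the file headers. Log2 ratios between samples, p-values and DEGseq q-values are also the authors', per the file headers. Per the submitters' processing notes, the build was hg19 and the tools included RSEM 1.2.12, Bowtie2 2.2.5, HISAT2 2.0.4 and DESeq 3.4, whose roles the notes do not state. Whether counting used strand is not stated by the sources used here, so 16 members that overlap another gene are uncertain. FPKM is relative: a gene that takes more reads lowers the others.

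Of the lines, 14 without a gene ID and 2047 genes without a value were left out, leaving 17219 genes. Of the columns with values per sample, 2 share a heading and were not used; replicate column 1 of each siRNA sample was taken from the mean and column 2. Reads per column were estimated as the depth at which most low values of short genes with 1 transcript lay within 0.2 reads of a whole number (86.5% to 89.8%, against a median of 29.1% to 31.4% over all depths tried).

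A trended limma fit (limma 3.58.1, R 4.3.3) was made on log2(FPKM + 1) for the 12078 genes that reached 1 FPKM in any sample, control against both siRNA samples, with Benjamini-Hochberg adjustment over all of them. The fit was also run on simulated data. There the control was given the same spread as the siRNA samples, so that run cannot cover the unknown variation of the control. Fold changes given as fold are ratios of FPKM. The p-values reflect how far the 2 siRNA samples lie apart, in the gene itself and over all genes of similar level. The fit gave the latter 5.16 prior degrees of freedom, against 1 residual degree for the gene. That spread may be technical and does not cover the control. Named are the members past the test, the extremes of each class by change and by control level, gene copies and complex II; other genes were named after their values were seen. The members, classes and lists were chosen with earlier results of these data known. Results of some single genes are not reported here, and those genes are left out of the plots of single genes, while counts, sums and medians include them.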

Additional observations from a re-analysis of the deposited data

How the results depend on the processing

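The number of members that rose was 4 as reported, 5 at an adjusted p under 0.10, 2 after centring on sample medians, 1 with a pseudocount of 0.1, 1 after rescaling to TPM, and 0 without the filter on low FPKM and after quantile normalization (limma; 10 and 12 higher members at an unadjusted p under 0.05). The smallest adjusted p of a member in the last 2 was 0.320 and 0.0539, and at those settings 0 and 22 of all genes passed. With the replicate columns as separate values, whose spread is within samples, 30 rose and 1 fell, against 19.1% and 16.1% of all genes. The number that fell was 0 at the other settings (limma; 1 member lower at an unadjusted p under 0.05 in each). The median difference of the members stayed between 0.10 (quantile normalization) and 0.15, and between 0.12 and 0.16 leaving out each siRNA sample, which leaves 1 sample against 1 and no test. DLX5 lost its call without the filter (log2 fold change -1.66, adjusted p = 0.320) and after quantile normalization (-1.63, adjusted p = 0.0531), and read -1.72 and -1.60 with siRNA2 or siRNA1 alone. The sign changed for NDUFA4 (-0.0454 after quantile normalization, -0.133 without siRNA1 and 0.146 without siRNA2), NDUFS5 (-0.0559, -0.0571 and 0.0831 in the same order), SDHD (0.116 without siRNA1 and -0.0033 without siRNA2), UQCRHL (-0.323 and 0.124 in that order) and UQCRC1 (0.0028 after centring), none of them called. The settings for COX10 and CMC2 were added after seeing the data. The cause was not tested. No paired analysis was possible because 1 control sample served for both siRNA samples.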

Other observations

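The word ACUCAGU was chosen with earlier results of these data known and was looked up in the transcripts of the members as a description. In GENCODE v29 coding transcripts (written with T) it occurred in 12 of 89 tested members (13.5%), against 24.3% of 12024 tested genes with such transcripts. The members are shorter, with a median longest transcript of 1059 bases in the deposited table against 3181 over all genes tested. The part of length in the lower share was not tested. Of the 12 members with the word, 3 were lower and 7 higher with both siRNAs, beside 10.1% and 69.7% of all tested members. Because of how the word was chosen, these counts are a description and test no link. In 8 of the 12 the word lay in a 3' UTR, a share that was not counted over all genes. Of these 8, NDUFA1, NDUFB8 and ATP5S were lower with both siRNAs, ATP5E, ATP5L, NDUFB5 and SDHC higher with both, and COX6C was mixed. NDUFA1 and NDUFB8 are the members lower with both siRNAs that the authors' deposited table also lists at a q-value under 0.001. They were picked by those values, and the word with earlier results known, so a link between them was not tested. Both hold the word in a 3' UTR, each in a stretch shown here with the word in capitals.
NDUFA1: tgaaaaaaataACTCAGTtatggccatcta
NDUFB8: aaatccctaataaaACTCAGTgctgtgtta
In NDUFA1 it lies at base 670 of a transcript of 766 bases, longer than the 486 bases of the only transcript in the deposited table, and in NDUFB8 at base 656 of 671. The sites in ATP5E, ATP5S, NDUFB5 and SDHC also lie at positions greater than the length of the longest transcript in the deposited table. The median log2 fold change was 0.17 for the 12 members with the word and 0.13 for the 77 without it.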
